A study of Mus musculus with 2 samples.

Results

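Capillary endothelium hands fatty acids from the blood to the heart muscle, and the 10 genes described here cover the steps of that route. They were taken by symbol from the 31053 genes of the count matrices: Lpl and Gpihbp1 for lipolysis at the vessel wall, Cd36, Slc27a1 and Aqp7 for passage across membranes, Fabp3, Fabp4, Fabp5 and Rbp7 for carriage inside the cell, and Mgll for the breakdown of monoglycerides. Live cells of mouse hearts at postnatal day 1 (P1) and day 7 (P7) had been profiled by droplet single cell RNA-seq to follow the epicardium and other cells of the intact neonatal heart. Each age was represented by 1 library, made from the hearts of 3 littermates pooled before digestion in Collagenase II, which lasted 20 min for P1 and 45 min for P7. Both preparations went through red cell lysis and a sort for cells that exclude 7-AAD, and the labels give no strain, genotype or sex. The ages could not be tested against each other, because neither had a second library, and age, litter, sex and digestion time cannot be told apart.

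Lipoprotein lipase, the product of Lpl, is made by parenchymal and stromal cells, and GPIHBP1 carries it across the endothelium and holds it on the capillary lumen, where it releases fatty acids from triglyceride-rich lipoproteins. CD36 and the transporters of the SLC27 family bring fatty acids into cells, and the small fatty acid binding proteins carry them through the cytosol. The heart takes up the bulk of its fuel as fatty acids after birth.

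The filters given below kept 4991 of 7836 barcodes as cells at P1 and 8511 of 9077 at P7. Cells kept had a median of 10875 unique molecular identifiers (UMIs, each counting 1 captured mRNA) in the P1 library and 10104 in the P7 library. Among the cells kept, 13 barcodes occurred in both libraries. The P1 library carried 57336 UMIs of Xist and 2 of the Y-linked genes, and the P7 library 12 and 18039, so that sex differed between the ages as well. Cells with lung markers made up 11.4% of the endothelium at P1 and 3.77% at P7. Without them the log2 ratio of P7 over P1 in endothelium, given below, was -1.41 for Rbp7 and 1.40 for Fabp3, Slc27a1 went from -0.16 to 0.08, and the 9 genes other than Slc27a1 kept their sign.

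Cells were placed in classes by a UMI of 1 marker gene in the absence of the others. Endothelium was gated on Cdh5, with 1653 cells at P1 and 3263 at P7. Fibroblasts were gated on Pdgfra (1114 and 2187 cells), pericytes on Kcnj8 (266 and 449), macrophages on Csf1r (245 and 195) and myocytes on abundant Tnnt2 (86 and 16). Lymphocytes, gated on Cd3e or Cd79a (35 and 274 cells), served to read background. That they make none of these genes in quantity was assumed and not tested. The gates were checked against markers that no gate used. The 5 endothelial markers other than Cdh5 summed to 3516 CPM, that is UMIs of a gene scaled by the summed UMIs of its class, in the gated endothelium of the P1 library and 3501 CPM in that of P7, and to 28.9 and 27.9 CPM in fibroblasts. The 5 adipocyte markers, of which Adipoq is the defining one, gave 3 UMIs in endothelium at P1, with Adipoq among the 3 genes at 0, and none at P7, which bears on genes that adipocytes also express. Over all cells kept they gave 32 UMIs at P1, with 1 gene at 0, and 11 at P7, with 3 genes at 0. Endothelium was divided further by UMIs of Gja5 (arterial), Aplnr and Car4 (coronary capillary) and Npr3 (endocardial). At P1, cells with lung markers made up 17.5% of cells with Car4 alone and 13.4% of those with Aplnr alone. They were 11.01% of cells with both and 2.46% of Npr3 cells. At P7 these shares were 2.80%, 2.60%, 5.19% and 0%. The subset values below include these cells, so coronary is the name of a gate and does not exclude lung endothelium. The 3 endocardial markers other than Npr3 summed to 1520 and 1615 CPM in the Npr3 cells, against 30.8 and 30.01 CPM in cells with both Aplnr and Car4. The 4 arterial markers other than Gja5 summed to 2762 and 3803 CPM in the Gja5 cells, against 218 and 157 CPM in cells with both capillary markers.

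The 4 intracellular carriers belong to 1 protein family, so it was first asked how alike their coding sequences are. Molecules were counted at the 3' end, and the untranslated 3' sequences were not compared. The alignment therefore cannot tell whether counts of the 4 genes could be confused. The windows below were chosen as the stretch of 60 coding bases in which the 4 genes are most alike, with the 27 bases shared by all 4 in capitals, from the GENCODE M21 transcripts.
Fabp3: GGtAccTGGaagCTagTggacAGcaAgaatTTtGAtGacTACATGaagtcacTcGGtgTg
Fabp4: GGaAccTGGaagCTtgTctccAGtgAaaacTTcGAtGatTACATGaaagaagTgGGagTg
Fabp5: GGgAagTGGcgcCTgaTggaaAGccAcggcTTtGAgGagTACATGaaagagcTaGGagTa
Rbp7: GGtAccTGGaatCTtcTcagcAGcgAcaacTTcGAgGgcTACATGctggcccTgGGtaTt
They run from coding base 19 to 78 in Fabp3, Fabp4 and Rbp7 and from 25 to 84 in Fabp5. Over the whole coding sequences of 396 to 405 bases, identity ranged from 54.3% of the shorter sequence between Fabp4 and Rbp7 to 65.9% between Fabp3 and Fabp4. On GRCm38, Fabp5 (chr3:10012548-10016607, plus strand) and Fabp4 (chr3:10204088-10208576, minus strand) lie on chromosome 3. Fabp3 (chr4:130308595-130315463, plus), Rbp7 (chr4:149449687-149454978, minus) and Aqp7 (chr4:41033074-41048139, minus) lie on chromosome 4. Cd36 is at chr5:17781690-17888801 (minus), Mgll at chr6:88724412-88828360 (plus) and Gpihbp1 at chr15:75596628-75599481 (plus), while Lpl (chr8:68880491-68907448, plus) and Slc27a1 (chr8:71568882-71587302, plus) share chromosome 8. All 10 are annotated as protein coding. Fabp3 overlaps Zcchc17 and Gm10570 on the opposite strand, and Mgll overlaps 3 unverified transcript models on its own strand, with which its reads could be shared.

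Among the cells kept, 7 of the 10 genes were at least 2-fold higher in endothelium than in all other cells at P1. They were Cd36, Fabp4, Fabp5, Gpihbp1, Rbp7, Aqp7 and Mgll, and 8.59% of 15171 genes tested passed that fold. At P7 the same 7 genes and Fabp3 passed it, 8 of 10, against 10.3% of 15465 genes. Fabp3 in all other cells was at 168 CPM at P1 and 46.2 CPM at P7. Myocytes, which had the most Fabp3, were 1.72% and 0.19% of the cells kept. The paper describes cardiomyocytes as underrepresented, through low survival and a size unsuited to the sort. The part of the filters used here in the number of myocytes was not tested. The Fabp3 ratio thus describes the cells kept and not the heart. The 5 myocyte markers summed to 243 CPM in endothelium and 982 CPM in all other cells at P1. At P7 they summed to 470 and 167 CPM, and the part of myocyte RNA in the Fabp3 ratio was not tested. The median log2 ratio of the 10 genes was 3.81 at P1 and 3.52 at P7, and that of all genes tested was -0.17 and -0.09. Lpl was at least 2-fold higher in endothelium at neither age, and Slc27a1 was at least 2-fold lower at both. Fabp3 was at least 2-fold lower at P1, with a log2 ratio of -1.84. These are counts past a size, not tests, and every interval given here is a 95% interval that covers counting error alone. The other cells include ungated cells with endothelial markers of their own, at 781 and 883 CPM for the 6 markers, and their part in these ratios was not tested.

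**Figure D1:**
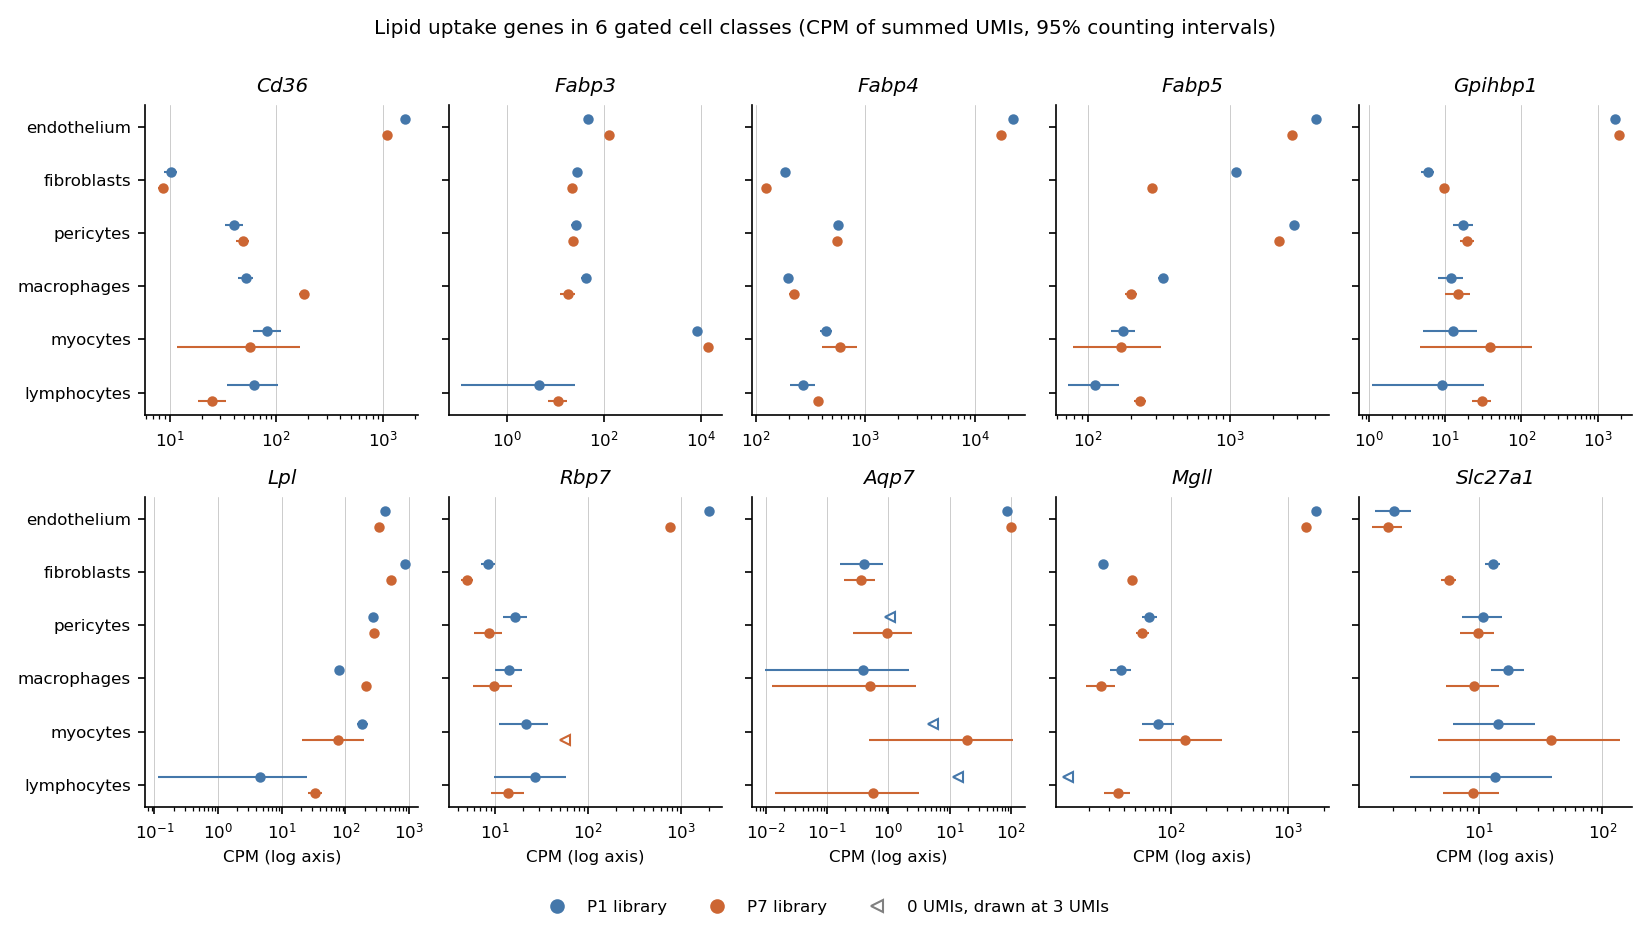
Levels of the 10 genes, as CPM of summed UMIs on a log axis, in 6 gated cell classes of the P1 (blue) and P7 (orange) libraries, with exact Poisson 95% intervals; open triangles mark classes with 0 UMIs, drawn at the level of 3 UMIs. Gpihbp1, Cd36, Fabp4, Rbp7 and Mgll have their highest point in endothelium at both ages, Fabp3 in myocytes and Lpl in fibroblasts.

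Lipolysis was divided between cell classes. Gpihbp1, the anchor of the lipase, stood at 1697 CPM (1679 to 1716) in endothelium at P1 and 1922 CPM (1906 to 1938) at P7. Endothelium held 88.7% of its UMIs in the P1 library and 85.6% in the P7 library. The other classes were at 5.92 to 17.3 CPM at P1 and 9.67 to 38.1 CPM at P7. Lymphocytes lay in that range, at 8.93 CPM (1.08 to 32.3) from 2 UMIs and 30.2 CPM (22.7 to 39.5). The 5 endothelial markers other than Cdh5 summed to 93.8 and 155 CPM in lymphocytes. A low level in the other gated classes could not be told from background. The enzyme itself had a different distribution. Lpl was highest in fibroblasts, at 873 CPM (859 to 887) and 517 CPM (510 to 525), and second in endothelium, at 423 CPM (413 to 432) and 331 CPM (325 to 338). Fibroblasts held 47.3% and 48.2% of the Lpl UMIs and endothelium 24.1% and 23.1%. These are shares of the cells kept, among which myocytes were few, and not of the heart. Pericytes followed at 267 and 284 CPM. Myocytes had 184 CPM (150 to 223) at P1 and 76.2 CPM (20.8 to 195), from 4 UMIs, at P7. Macrophages had 78.5 CPM (68.1 to 90.03) at P1 and 212 CPM (192 to 233) at P7, against 4.47 and 33.6 CPM in lymphocytes.

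Of the membrane proteins, Cd36, the main fatty acid translocase of the heart, was at 1618 CPM (1600 to 1637) in endothelium at P1 and 1102 CPM (1089 to 1114) at P7. Its other classes lay between 8.70 and 181 CPM. Macrophages, which use CD36 as a scavenger receptor, had the highest value of these at P7 (163 to 201). Their interval overlapped that of myocytes, at 57.2 CPM (11.8 to 167) from 3 UMIs. At P1 macrophages had 51.7 CPM (43.4 to 61.2) and lymphocytes 62.5 CPM (34.2 to 105). Aqp7, a channel for water and glycerol, was at 86.8 CPM (82.6 to 91.2) and 101 CPM (97.8 to 105) in endothelium, which held 87.4% and 85.2% of its UMIs. In fibroblasts it was at 0.40 and 0.35 CPM. Slc27a1, also called FATP1, was scarce everywhere. Endothelium had the lowest level of the 6 classes, 2.02 CPM (1.43 to 2.79) and 1.81 CPM (1.35 to 2.39), and fibroblasts had 12.9 and 5.66 CPM. At these levels the order of the remaining classes was not resolved, since neighbouring intervals overlapped.

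The carriers were found in different classes. Fabp4 was the most abundant of the 10 genes in endothelium, at 22156 CPM (22088 to 22225) at P1 and 17525 CPM (17475 to 17574) at P7. Lymphocytes read 272 and 371 CPM of it, and fibroblasts (186 and 125 CPM) and macrophages (197 and 223 CPM) were below that. Pericytes, at 563 CPM (536 to 592) and 548 CPM (526 to 571), were above it. So were myocytes, at 443 CPM (390 to 502) and 591 CPM (401 to 838). Fabp5 was broader, with 4035 CPM (4006 to 4065) and 2735 CPM (2715 to 2754) in endothelium and 2848 CPM (2786 to 2912) and 2233 CPM (2188 to 2279) in pericytes. Endothelium held 56.7% and 63.5% of its UMIs, and lymphocytes read 112 CPM (72.3 to 165) and 234 CPM (212 to 257) of it. In lymphocytes Fabp5 was 41.0% and 62.9% of the level of Fabp4, against 18.2% and 15.6% in endothelium. Fabp5 made by lymphocytes themselves was not told apart from background. Rbp7, a cellular retinol binding protein, resembled Fabp4, with 1975 CPM (1954 to 1995) and 762 CPM (752 to 773) in endothelium and no more than 26.8 CPM in any other gated class. Fabp3, the heart type carrier, was highest in myocytes, at 8359 CPM (8121 to 8602) and 13603 CPM (12623 to 14638). Mgll, which splits monoglycerides into glycerol and fatty acid, closed the list with 1711 CPM (1692 to 1730) and 1412 CPM (1398 to 1426) in endothelium. Fibroblasts had 26.7 and 47.0 CPM of Mgll and pericytes 65.6 and 57.5 CPM, while lymphocytes had 0 UMIs at P1 and 35.3 CPM at P7.

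UMIs of several of the genes were found in the same cells. The abundance of each gene alone can give such counts, and occurrence together beyond it was not tested. With cells drawn down to 2000 UMIs apiece, a depth that 119 endothelial cells of P1 and 245 of P7 did not reach, the median endothelial cell held UMIs of 6 of the 10 genes at both ages. The share of endothelial cells with at least 5 of the genes was 67.1% at P1 and 80.6% at P7, and at full depth 80.9% and 90.5%. Fibroblasts with as many made up 0.093% and 0.14%, and lymphocytes, whose UMIs of these genes were read as background, 0% and 0.41%. At full depth these shares were 19.7% and 21.4% in fibroblasts and 2.86% and 2.55% in lymphocytes. Among the endothelial subsets at 2000 UMIs, the share was 96.9% and 93.9% in cells with both Aplnr and Car4, and 5.10% and 1.64% in Npr3 cells. Gja5 cells lay between, at 40.7% of 27 cells and 48.4% of 122 cells. At full depth it was 99.1% and 99.5% in cells with both markers, 81.5% and 86.2% in Gja5 cells and 36.5% and 18.0% in Npr3 cells.

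**Figure D2:**
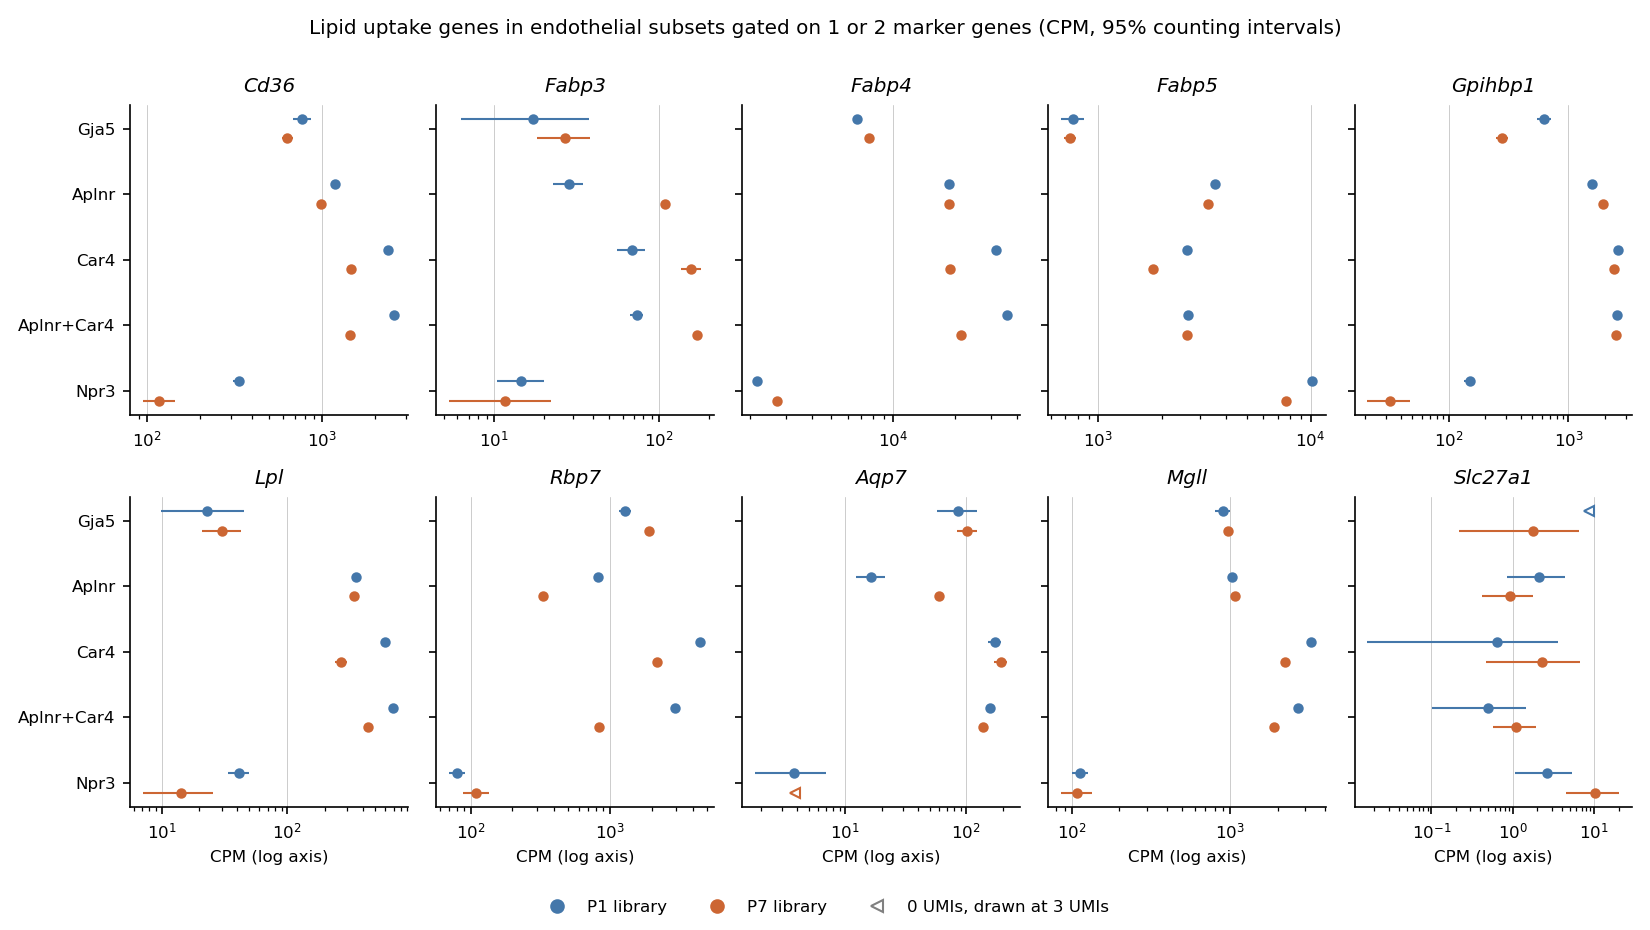
Levels of the 10 genes in 5 endothelial subsets gated on Gja5, Aplnr, Car4, Aplnr with Car4, or Npr3, as CPM on a log axis with exact Poisson 95% intervals, in the P1 (blue) and P7 (orange) libraries; open triangles mark 0 UMIs, drawn at the level of 3 UMIs. Fabp5 has its highest point in the Npr3 subset at both ages, and Gpihbp1, Cd36 and Mgll have their lowest there.

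Within the endothelium most of the genes were higher in capillary than in endocardial cells. Cells with both capillary markers were compared with Npr3 cells, and 8 of the 9 genes with enough UMIs were at least 2-fold higher in the capillary cells at P1, against 8.11% of 11079 genes. At P7 it was 8 of 10, against 11.6% of 11383 genes. Fabp3 was among the 8 at both ages, at 72.9 and 14.6 CPM at P1 and 168 and 11.7 CPM at P7. The 5 myocyte markers summed to 360 and 97.5 CPM in the same subsets at P1, and to 620 and 101 CPM at P7. The part of myocyte RNA in this Fabp3 difference was not tested. Gpihbp1 was at 2557 CPM (2517 to 2598) in the capillary cells and 150 CPM (136 to 166) in the Npr3 cells at P1, and at 2477 CPM (2447 to 2507) and 32.4 CPM (20.9 to 47.8) at P7. The P7 value in Npr3 cells was at the level of lymphocytes. Lpl went from 698 to 41.3 CPM between these subsets at P1 and from 436 to 14.2 CPM at P7. The last value came from 11 UMIs and lay below the 33.6 CPM of lymphocytes. Cd36 went from 2564 to 333 CPM and from 1436 to 118 CPM, and Mgll from 2682 to 113 CPM and from 1902 to 107 CPM.

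Fabp5 had the reverse order and was highest in the endocardial subset. Npr3 cells had 10185 CPM (10065 to 10307) of Fabp5 at P1 and 7658 CPM (7464 to 7855) at P7, against 2642 and 2609 CPM in cells with both capillary markers. The log2 ratio of capillary over Npr3 cells was -1.95 at P1 and -1.55 at P7. Fabp4 was lower there, with 2177 CPM (2121 to 2233) and 2701 CPM (2586 to 2819) in Npr3 cells and 35860 and 21337 CPM in the capillary cells. As a share of the UMIs of the 4 carriers, which are counted once per molecule at the 3' end and were not scaled by gene length, Fabp4 made up 86.4% and 85.5% in the capillary cells and 17.5% and 25.8% in Npr3 cells. Fabp5 made up 81.8% and 73.1% in Npr3 cells. Pericytes, at 82.5% and 79.4% Fabp5, and fibroblasts, at 83.2% and 65.1%, had a similar make-up at a lower level, and in myocytes Fabp3 made up 92.9% and 94.7%. Fibroblasts at P7 had 284 CPM of Fabp5, close to the 234 CPM of lymphocytes. How much of the latter lymphocytes made themselves was not tested. Slc27a1 was the other gene lower in the capillary cells at P7, at 12 and 8 UMIs in the 2 subsets.

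**Figure D3:**
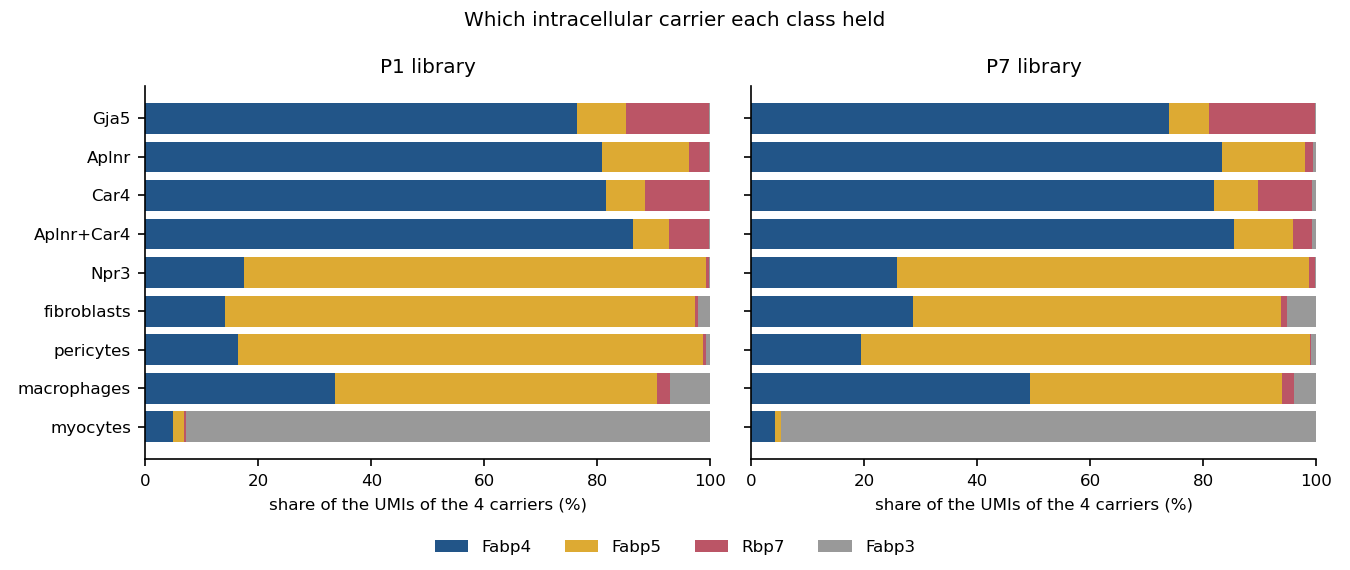
Share of the summed UMIs of the 4 intracellular carriers that each gene held, in percent, by cell class and library. Fabp4 makes up over 70% of the bar in the 4 coronary subsets, Fabp5 over 70% in Npr3 cells and Fabp3 over 90% in myocytes, in both libraries.

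The coronary subsets differed from each other as well. Gja5 cells had less of the lipase pathway than capillary cells, with Gpihbp1 at 627 CPM (547 to 716) and 279 CPM (248.7 to 311.5) and Lpl at 22.9 CPM (9.90 to 45.2) and 30.4 CPM (21.04 to 42.5). Rbp7 did not follow that order. It was highest in cells with Car4 alone, at 4437 CPM (4332 to 4543) and 2204 CPM (2124 to 2286), and in Gja5 cells it was at 1289 CPM (1173 to 1414) at P1 and 1920 CPM (1840 to 2003) at P7. At P7 the Gja5 cells were above the cells with both capillary markers (843 CPM), and at P1 below them (2945 CPM). Cells with Aplnr alone had 828 and 333 CPM. The subset with Car4 alone was not free of arterial transcripts, with 75.9 and 176 CPM of Gja4 and 60.5 and 175 CPM of Hey1, and their part in the Rbp7 level was not tested. Without cells carrying a UMI of Gja4 or Hey1, the log2 ratio of P7 over P1 for Rbp7 in this subset was -1.74, against -1.01 with them.

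Among cells with Aplnr or Car4 and neither of the other subset markers, Aqp7 was higher with Car4 at P1. It was at 16.4 CPM (12.3 to 21.4) in cells with Aplnr alone, 172 CPM with Car4 alone and 157 CPM (147 to 167) with both, a log2 ratio of 3.25 for both markers over Aplnr alone. At P7 cells with Aplnr alone stood at 60.03 CPM (55.2 to 65.1) and those with both markers at 137 CPM (130 to 144), which gives 1.19 for the same ratio. Cells with Aplnr alone had a median of 11153 UMIs at P1 and 8069.5 at P7, and a cell of lower depth can more easily miss its Car4 UMI. The part of depth in this value was not tested. With any UMI of Aplnr as the gate, whether or not Car4 was seen, Aqp7 differed between the ages by a log2 ratio of -0.11. Gja5 cells, which held no Car4 UMI by their gate, had 85.9 CPM (58.0 to 123) of Aqp7 at P1 and 102 CPM (84.0 to 122) at P7. Cells with none of the 4 subset markers had 56.1 and 108 CPM. Npr3 cells had 10 UMIs of Aqp7 at P1, and 0 at P7. There a limit of 3 counts is 3.88 CPM, and the exact interval ends at 4.78 CPM.

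Upstream sequence is shown for 3 genes whose levels differed between subsets or ages, chosen after their values were seen. RefSeq promoters on GRCm38.p6 were matched for 6 of the 10 genes. The 250 bases before a RefSeq start are given for Cd36 (chr5:17835897-17836146, minus strand), Aqp7 (chr4:41048137-41048386, minus strand) and Rbp7 (chr4:149454969-149455218, minus strand). The Cd36 window precedes a start inside the annotated gene and holds no GENCODE exon base, while 3 bases of the Aqp7 window and 10 of the Rbp7 window are annotated as exon. For Aqp7, which had a second RefSeq start further into the gene, the window of the outer start is shown. Capitals mark matches, on either strand, to the nuclear receptor half-site AGGTCA or the ETS core GGAAGT.
Cd36: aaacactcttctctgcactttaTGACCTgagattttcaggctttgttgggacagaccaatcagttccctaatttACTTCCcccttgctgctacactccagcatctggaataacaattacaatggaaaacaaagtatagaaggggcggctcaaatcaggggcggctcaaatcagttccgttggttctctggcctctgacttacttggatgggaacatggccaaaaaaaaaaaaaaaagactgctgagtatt
Aqp7: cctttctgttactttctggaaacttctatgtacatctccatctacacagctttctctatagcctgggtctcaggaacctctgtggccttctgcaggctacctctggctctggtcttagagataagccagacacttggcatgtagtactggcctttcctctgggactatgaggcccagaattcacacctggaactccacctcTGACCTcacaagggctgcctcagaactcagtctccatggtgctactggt
Rbp7: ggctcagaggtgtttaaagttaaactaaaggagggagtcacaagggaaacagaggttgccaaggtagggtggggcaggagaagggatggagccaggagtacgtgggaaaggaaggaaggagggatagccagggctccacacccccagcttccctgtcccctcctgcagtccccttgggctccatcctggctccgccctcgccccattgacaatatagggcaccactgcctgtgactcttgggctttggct
The half-site occurs in 16.3% and the ETS core in 23.8% of all 32851 RefSeq windows of 300 bases around a start. Cd36 held a match to each, Aqp7 a match to the half-site, and Rbp7 neither. Another motif searched, TATAAA (13.6% of windows), was in none of the 10 windows of the 6 matched genes. A match describes letters and is not evidence of binding.

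Between the ages, the endothelial levels of most of these genes differed by less than 2-fold. Of the 10 genes, all with at least 20 summed UMIs, 1 was at least 2-fold higher at P7, against 4.95% of 13642 genes tested, and 1 was at least 2-fold lower, against 5.13%. The median log2 ratio of P7 over P1 was -0.31 for the 10 genes and 0.06 for all genes. Rbp7 was the gene that was lower, with a log2 ratio of -1.37 (-1.40 to -1.35). Fabp3 was the gene that was higher, at 1.42 (1.31 to 1.53). Gpihbp1 at 0.18 (0.16 to 0.20) and Aqp7 at 0.22 (0.14 to 0.31) were the others with a ratio above 0. Cd36 at -0.55, Fabp5 at -0.56, Lpl at -0.35, Fabp4 at -0.34 and Mgll at -0.28 were below it, and for Slc27a1 the interval spanned 0 (-0.80 to 0.50).

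**Figure D4:**
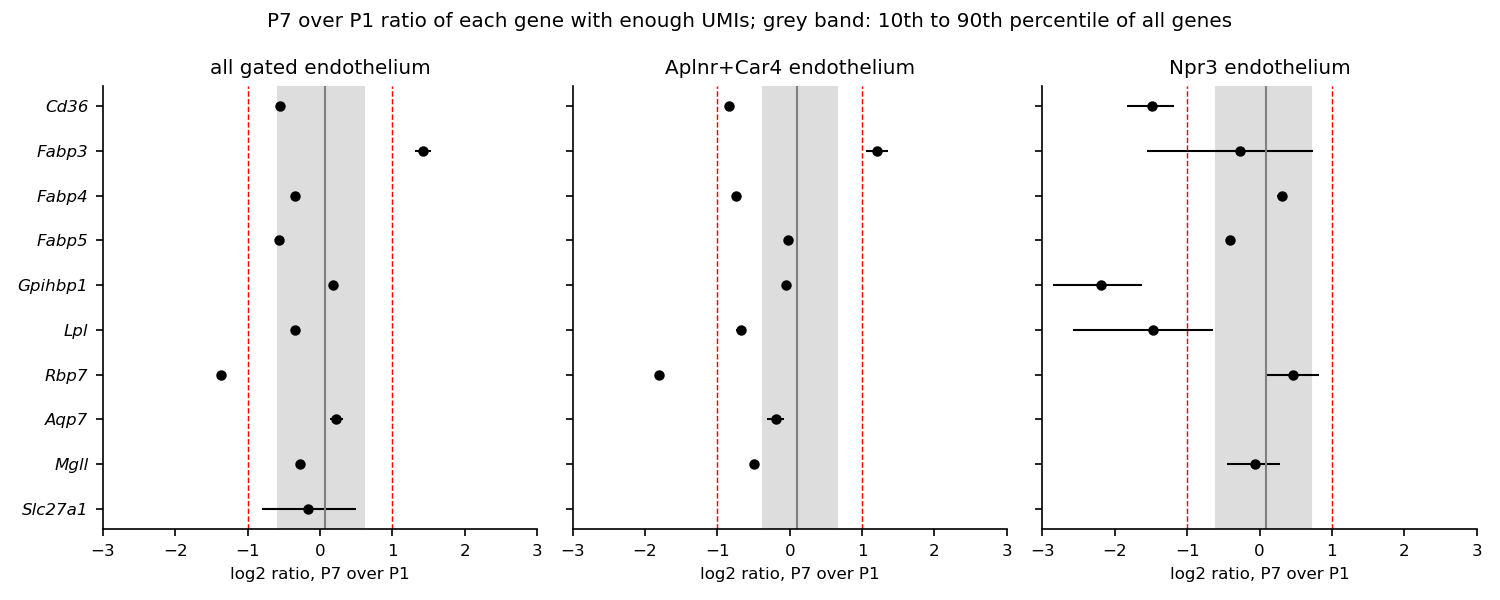
Log2 ratio of P7 over P1 for each gene with at least 20 summed UMIs, in all gated endothelium, in cells with both Aplnr and Car4 and in Npr3 cells, with exact 95% counting intervals; the grey line and band are the median and the 10th to 90th percentile of all genes tested, and dashed lines mark 2-fold. Rbp7 lies below the lower dashed line and Fabp3 above the upper one in the first 2 panels, and neither does in Npr3 cells.

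The make-up of the endothelium also differed between the libraries. Npr3 cells were 12.3% of it at P1 and 1.87% at P7, and cells with Aplnr alone 16.3% and 33.0%. Weighting the P7 subsets to their share of UMIs at P1 gave a log2 ratio of -1.33 for Rbp7 and 1.24 for Fabp3, and turned Gpihbp1 from 0.18 to -0.06. For Fabp5 it gave -0.35. Npr3 cells alone held 36.8% of its endothelial UMIs at P1 and 7.85% at P7, and their part in the Fabp5 ratio was not tested. In cells with both capillary markers Fabp5 differed little, with a log2 ratio of -0.02 (-0.05 to 0.01), and so did Gpihbp1, at -0.05 (-0.07 to -0.02). In the same cells Rbp7 was at -1.80 (-1.84 to -1.77), Cd36 at -0.84 (-0.87 to -0.80), Fabp4 at -0.75 (-0.76 to -0.74) and Lpl at -0.68 (-0.74 to -0.62). In fibroblasts Fabp5 was at 1106 CPM (1091 to 1122) at P1 and 284 CPM (278 to 289) at P7, which is -1.96 on the log2 scale with an upper bound of -1.93. The P7 value was close to the 234 CPM (212 to 257) of lymphocytes, whose own Fabp5 was not told from background. The part of background in the fibroblast value was not tested.

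The endothelial Fabp3 signal has to be read beside myocyte RNA. The 5 myocyte markers summed to 243 CPM in endothelium at P1 and 470 CPM at P7, with none at 0, and 69.3% and 73.4% of endothelial cells held at least 1 UMI of them. The ratio of Fabp3 to Tnnt2, the troponin T of heart muscle, was 0.65 in endothelium and 0.60 in myocytes at P1, and 1.10 and 1.44 at P7. Fibroblasts gave 0.47 and 0.90. In the endothelial cells without any myocyte marker UMI, 508 at P1 and 869 at P7, Fabp3 was at 18.3 CPM (83 UMIs) and 27.5 CPM (157 UMIs), and the log2 ratio of P7 over P1 was 0.58 (0.20 to 0.99), no longer past 2-fold. Rbp7 in the same cells was at 1470 and 760 CPM, a log2 ratio of -0.95 (-1.01 to -0.90), which is also within 2-fold. These cells were shallower, with medians of 7886 and 5656 UMIs. Marker sums of other classes were also higher in endothelium at P7, from 164 to 728 CPM for 3 smooth muscle genes, from 536 to 696 CPM for the 4 fibroblast genes other than Pdgfra and from 45.3 to 136 CPM for the 4 pericyte genes other than Kcnj8. Their part in the ratios of the other members was not tested.

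**Figure D5:**
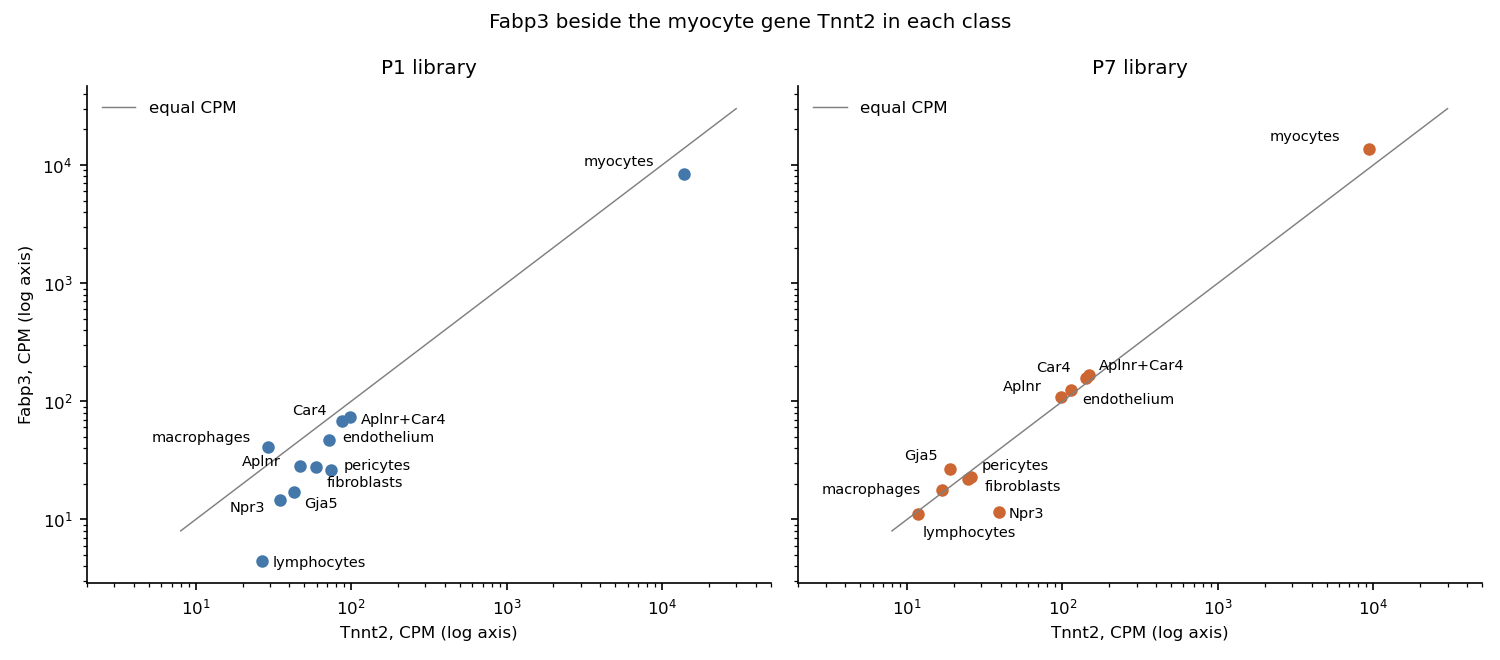
Fabp3 against Tnnt2 in each cell class and endothelial subset, both as CPM on log axes, with a panel per library; the grey line marks equal CPM. The ratio of the genes is 0.60 in myocytes and 0.65 in endothelium at P1, and 1.44 and 1.10 at P7, and myocytes lie far above every other class on both axes.

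The wider pathway was read from 45 related genes, of which 37 had enough UMIs in endothelium. Of these, 1 was at least 2-fold higher at P7, 2 were at least 2-fold lower and 34 were neither, with a median log2 ratio of 0.13. Among all genes 4.95% were higher and 5.13% lower by that fold, and the share of the related genes lay near these. Angptl4, a secreted inhibitor of lipoprotein lipase, had 199 CPM in endothelium at P1 and 67.4 CPM at P7, or -1.56 on the log2 scale (-1.64 to -1.48). In cells with both capillary markers it was at 321 and 76.5 CPM, and in fibroblasts at 86.4 and 46.7 CPM. The other genes past 2-fold, Plin5 at 1.16 (-0.23 to 3.04) and Dgat2 at -1.02 (-2.31 to 0.18), were below 1 CPM at both ages and their intervals spanned 0. At both ages 13 of the 37 were at least 2-fold higher in endothelium than in other cells, a fold that 8.59% of all genes passed at P1 and 10.3% at P7. The 37 were kept for their UMIs in endothelium, and all genes for UMIs in endothelium and other cells together. The shares are thus not alike, since the first filter favours genes high in endothelium. It left out Slc27a6 (log2 ratios of endothelium over other cells of -7.24 and -4.91) and Ppara (-2.98 and -2.73). Among the 13 were Scarb1, a lipoprotein receptor, Cav1 and Cav2 of caveolae, the lipase Lipe, and the regulators Pparg, Meox2 and Tcf15. Pparg, a nuclear receptor that controls many lipid genes, was at 58.2 and 34.3 CPM. Meox2 and Tcf15, which act together on lipid uptake in heart endothelium, were at 170 and 166 CPM and at 462 and 666 CPM. Cells with both capillary markers had 94.5 CPM of Pparg at P1 and 45.8 CPM at P7. The same cells had 260 and 186 CPM of Meox2 and 702 and 842 CPM of Tcf15.

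Profiles over 22 points, 11 classes and subsets in each of the 2 libraries, were compared with those of 14011 genes by Pearson's r of log2(CPM + 1). The points share 2 libraries, and r is a description. Fabp4 and Gpihbp1 were among the 3 nearest genes of each other (r = 0.97), and Cd36 was nearest to Fabp4 (0.95), Scarb1 and Cd300lg. Rbp7 was nearest to Cmtm8 (0.97), Btnl9 and Rasgrp3, Aqp7 to Fam124b (0.96), Tlx1 and Abcb1a, and Mgll to Ablim3 (0.94), Ccny and Kitl. Fabp5 was nearest to Tmtc2 (0.94), Gpr182 and Slc29a1. Fabp3 stood with the sarcomere genes Tnnc1 (0.99) and Actc1 and with Smpx. Lpl had no close partner, with Phactr1 first at 0.83, and Slc27a1 was nearest to Fam213b (0.92), with an r of -0.82 to Gpihbp1. Several points of Slc27a1 rest on few UMIs, with 0 and 2 in Gja5 cells and 1 and 3 in cells with Car4 alone. Cells with both capillary markers had 3 and 12, so its r values depend on levels near 0.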

How the data were processed

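Live cells from P1 and P7 mouse hearts had been sequenced with the 10x 3' kit. The authors aligned reads to mm10 (GRCm38) with Cell Ranger 3.1.0, per the labels and methods, and deposited 1 matrix of raw UMI counts (genes by barcodes) a library. No counting setting for strand is given in the sources used here.

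Barcodes with 200 to 8000 genes and at most 20% mitochondrial UMIs were kept. The methods give the gene limits, and the mitochondrial limit was set here. No doublet caller was run. Cells with a UMI of more than 1 gate marker were left out of every class, and myocytes needed at least 5 Tnnt2 UMIs making up 0.2% of their UMIs. UMIs were summed per class and scaled to CPM. Log2 ratios had 0.5 counts added to each sum, and genes with at least 20 summed UMIs were read. Intervals are exact Poisson or exact conditional binomial at 95%, and a count of 0 was read as a limit of 3 counts. With 1 library per age there is no test. The ratios were checked on simulated counts. Python 3.11.15, numpy 2.4.6, scipy 1.17.1 and pandas 2.3.3 were used.

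The 10 genes, the gates and the lists were chosen with earlier results of these data known. The text names all 10 genes, related genes past 2-fold, genes with the closest profiles and class markers. The related genes given within 2-fold were chosen after their values were seen. Alternatives varied the cell filters, gates, scaling and added counts; 4 of them were chosen after seeing the data, namely weighting of subsets, removal of cells with myocyte markers, fibroblasts as the reference and removal of cells with Gja4 or Hey1.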

Additional observations from a re-analysis of the deposited data

Results flagged for a closer look

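Pairs of cell classes in which a gene differed between the ages in opposite directions are given as log2 ratios of P7 over P1. The differences between the classes were not tested. With 51.7 CPM of Cd36 at P1, macrophages were at the level of lymphocytes (62.5 CPM, 34.2 to 105). Cd36 was at 1.80 in macrophages and -1.49 in Npr3 cells. Lpl had the same pair of classes, at 1.43 and -1.48. In Npr3 cells the ratio (-2.58 to -0.64) came from 11 Lpl UMIs at P7. Their 14.2 CPM lay below the 33.6 CPM of lymphocytes. Rbp7 was at 0.57 in Gja5 cells, of which there were 27 at P1, and -1.80 in cells with both Aplnr and Car4. Aqp7 was at 1.86 in cells with Aplnr alone and -0.19 in cells with both markers. Fabp4 was at 0.31 in Npr3 cells and -0.75 in cells with both capillary markers. Fabp3 was at 1.93 in cells with Aplnr alone, beside summed myocyte markers of 156 and 414 CPM there, and -1.20 in macrophages, beside 98.8 and 73.9 CPM. Gpihbp1 was at 0.70 in fibroblasts, from 5.92 to 9.67 CPM and so at the level of lymphocytes, and -2.19 in Npr3 cells, where 61 cells at P7 gave 25 UMIs. With any UMI of Npr3 as the gate, that ratio was -0.59. Mgll was at 0.82 in fibroblasts and -0.55 in cells with Car4 alone. Lymphocytes had 0 UMIs of Mgll at P1 and 35.3 CPM (27.1 to 45.1) at P7. That interval overlapped the one of fibroblasts at P7 (44.8 to 49.2), and the part of background in the fibroblast ratio was not tested.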

How the results depend on the processing

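Over 504 alternative values for single genes, 484 had the sign of the value reported and 260 of 275 past 2-fold were still past it. Fabp3 in endothelium over other cells at P1 turned from -1.84 to 0.74 with fibroblasts as the reference, which leaves the myocytes out of it. Aqp7 in cells with Aplnr alone became -0.11 with any UMI of the marker as the gate, and Lpl in myocytes became 0.12 with no mitochondrial limit; the causes were not tested. The count of genes higher at P7 became 0 when cells with other gate markers were kept in the classes, and the counts higher and lower both became 0 without cells holding a myocyte marker UMI. The median log2 ratio of the 10 genes became -0.37 when centred on all genes, -0.40 after thinning, -0.39 with weighted subsets and -0.21 without cells holding a myocyte marker UMI. In endothelium, Fabp3 ranged from 0.58 to 1.46 and Rbp7 from -1.45 to -0.95 over 13 alternatives each. Slc27a1 ranged from -0.42 to 0.72 and kept its sign in 9 of 13, and Gpihbp1 from -0.06 to 0.19 in 12 of 13. No paired analysis was possible because each age has 1 library, so none could be left out either. Depth limits Slc27a1 and every gene in the 16 myocytes and 61 Npr3 cells of P7.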
